A study of Saccharomyces cerevisiae BY4741 with 25 samples.

Results

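The upstream activating factor (UAF) is the yeast complex that binds the upstream element of the ribosomal RNA gene promoter and helps to bring RNA polymerase I to it. Its subunits Rrn5, Rrn9, Rrn10 and Uaf30 act together with histones H3 and H4, and its loss from the ribosomal RNA genes is known to let RNA polymerase II transcribe them. Variant calls in RRN5, RRN9, RRN10 and UAF30 were taken from the full call lists of 9 genomic DNA libraries, with any call annotated to one of these genes by symbol counted, upstream and downstream annotations included. This gave 6 of the 4459 calls, at 5 distinct positions, and all 4 genes had at least 1 call.

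The libraries came from Saccharomyces cerevisiae in the BY4741 background, and the design text describes a search for mutations that relieve repression of SIR2, the gene of a histone deacetylase that silences the ribosomal RNA genes. For every mutant, RRC1 to RRC8, clones from spores of a backcross, of mixed MATa and MAT alpha mating type, were grown apart in rich medium to stationary phase and pooled at harvest into 1 library. The strain names of the mutants are YTT67_alpha25 (RRC1), YTT66_a17 (RRC2), YTT66_a19 (RRC3), YTT67_alpha5 (RRC4), YTT66_a40 (RRC5), YTT66_a296A (RRC6), YTT66_a33 (RRC7) and YTT66_a44 (RRC8), and the parental library combined YTT66 and YTT67. RRC4 was taken as a mutant on its title and strain name, although its free-text description names the parents. Sample titles name rrn9, rrn10, rrn5 and uaf30 for RRC1, RRC2, RRC3 and RRC5. A call of the named gene in its pool therefore shows only that list and title match. In pooled linkage analysis of this kind, an allele that all mutant clones share is on all reads and an unlinked allele on about 50% of them. The full lists held 447 calls in the parental library and 449 to 598 in the mutant pools. Calls scored at 200 or more had a median of 60 to 71 reads in 7 mutant pools and of 44 in RRC6, against 61 reads in the parental library. No mutant was sequenced in more than 1 library, so the tests below compare reads within or between single libraries. Their p-values and intervals cover counting error only, and not which clones were pooled. Reads of amplified libraries are also not independent molecules.

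The changes differed in kind between the subunits, and are shown as they stand in the deposited lists because each subunit carried a different one. They are written as reference to alternate, for the codon with the changed base in capitals and for UAF30 as the genomic alleles.
RRN5, codon 78: aGt to aAt
RRN9, codon 309: cGg to cAg
RRN10, codon 117: Cag to Tag
UAF30, codon 112: AGGG to AGG

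RRN5 and RRN9 carried missense changes, RRN10 a stop codon and UAF30 a frameshift. Protein lengths were taken from the locus lengths of the RefSeq R64 gene table. The files name no genome build, but the deposited residue number equalled the one counted from the R64 locus for 2252 of 2274 coding single-base effects in loci whose length is a multiple of 3. In Rrn9 the change of arginine to glutamine (R309Q) lay at residue 309 of 365, or 84.7% of the length. In Rrn5 the change of serine to asparagine (S78N) lay at residue 78 of 363, or 21.5% of the length. The stop in Rrn10 (Q117*) came at residue 117 of 145, so that 29 residues at the carboxyl end were cut off. The frameshift in Uaf30, a protein with a SWIB domain, fell on the glycine codon at residue 112 of 228, and 117 residues lay from there to the end of the reference protein. No sequence beyond these codons was used here, so the residues added after the frameshift were not analysed here.

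**Figure D1:**
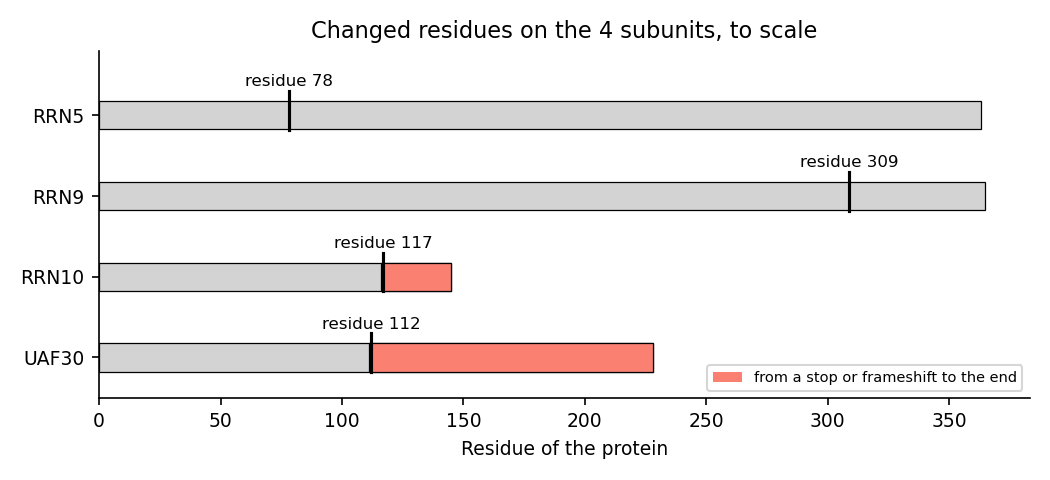
Each bar is a subunit drawn to scale, with the residue number on the horizontal axis. A black line marks the changed residue, and red marks the residues from a stop or frameshift to the end. The RRN10 stop leaves most of the protein, whereas the UAF30 frameshift lies near its middle.

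Calls inside the 4 genes were found in 5 of the 9 lists, and a further list held an upstream call only. Over the 36 combinations of gene and list, 5 had a call in the gene and 30 had no call at all. RRC6, RRC7 and the parental library were the 3 lists without any call annotated to a subunit gene. Where a list has no call its depth is not listed either, and the share of alternate reads was not measured. Annotation as upstream or downstream reached at most 101 bases from a gene in these lists, so calls farther away are not counted as calls of a gene.

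RRN9 (YMR270C), whose product contacts the TATA-binding protein, was changed at position 805498 of chromosome 13 in RRC1. All 77 reads carried T in place of C at a score of 222 (share 100%, exact Clopper-Pearson 95% interval 95.3 to 100%). This depth was above the median of 65 reads of the calls with a score of at least 200 in that pool, and 82.5% of those calls had as many reads or fewer. The nearest other call lay 3.7 kb away, an A to G call on 100% of reads in all 9 lists, with 71 reads in RRC1 and 66 in the parental library. The parental library was therefore read at ordinary depth close to RRN9.

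RRN10 (YBL025W), a small subunit needed for full RNA polymerase I transcription, was changed at position 171829 of chromosome 2 in RRC2. All 50 reads carried the stop allele at a score of 222 (share 100%, exact interval 92.9 to 100%). The depth was below the pool's median of 71 reads, and 17.0% of its calls with a score of at least 200 had as many reads or fewer. In the parental library the nearest call lay 49.5 kb away on 19 reads, so parental depth near RRN10 is unknown. That call was annotated to a Ty element open reading frame, with upstream and downstream annotations counted. RRC6 held an intergenic call 552 bases from the changed base of RRN10, on 24% of 37 reads with a score of 18.1.

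RRN5 (YLR141W) was the only subunit gene with calls of 2 kinds. In RRC3 the S78N change at position 423915 of chromosome 12 was on all 34 reads at a score of 222 (share 100%, exact interval 89.7 to 100%). Its depth was the lowest of the 5 calls inside the genes. Among the calls of that pool with a score of at least 200, 11.3% had as many reads or fewer, against a median of 60 reads. In RRC4 a C to A call stood 74 bases upstream of RRN5, at position 423609, on 8 of 44 reads (18.2%, exact interval 8.19 to 32.7%). That call was also annotated as Q46K in the overlapping open reading frame YLR140W, and its score was 6.2, a level that 7.63% of the pool-specific calls of RRC4 had or fell below. It was in no other list, and its strand-neutral class, G:C to T:A, was not that of the other single-base changes of the subunit genes. Their class, G:C to A:T, was also the common one in RRC4. Of the 169 pool-specific calls of RRC4 scored at 200 or more, 156 were of this class on numbered chromosomes at positions with no parental call. The 169 were not limited to such positions.

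UAF30 (YOR295W) was the only one of the 4 genes with an internal call in a pool whose title names no gene. The frameshift at position 869540 of chromosome 15 was on all 45 reads in RRC5 (share 100%, exact interval 92.1 to 100%) and on 54 of 55 reads in RRC8 (98.2%, exact interval 90.3 to 99.95%), with a score of 214 in both. The shares differed by -1.82 percentage points, RRC8 minus RRC5, which did not pass a two-sided Fisher's exact test on the reads of these libraries (p = 1). Both depths lay below their pool's median at such scores, 55 against 60 reads in RRC8 and 45 against 63 reads in RRC5. RRC8 and RRC5 carry different strain names (YTT66_a44 and YTT66_a40).

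**Figure D2:**
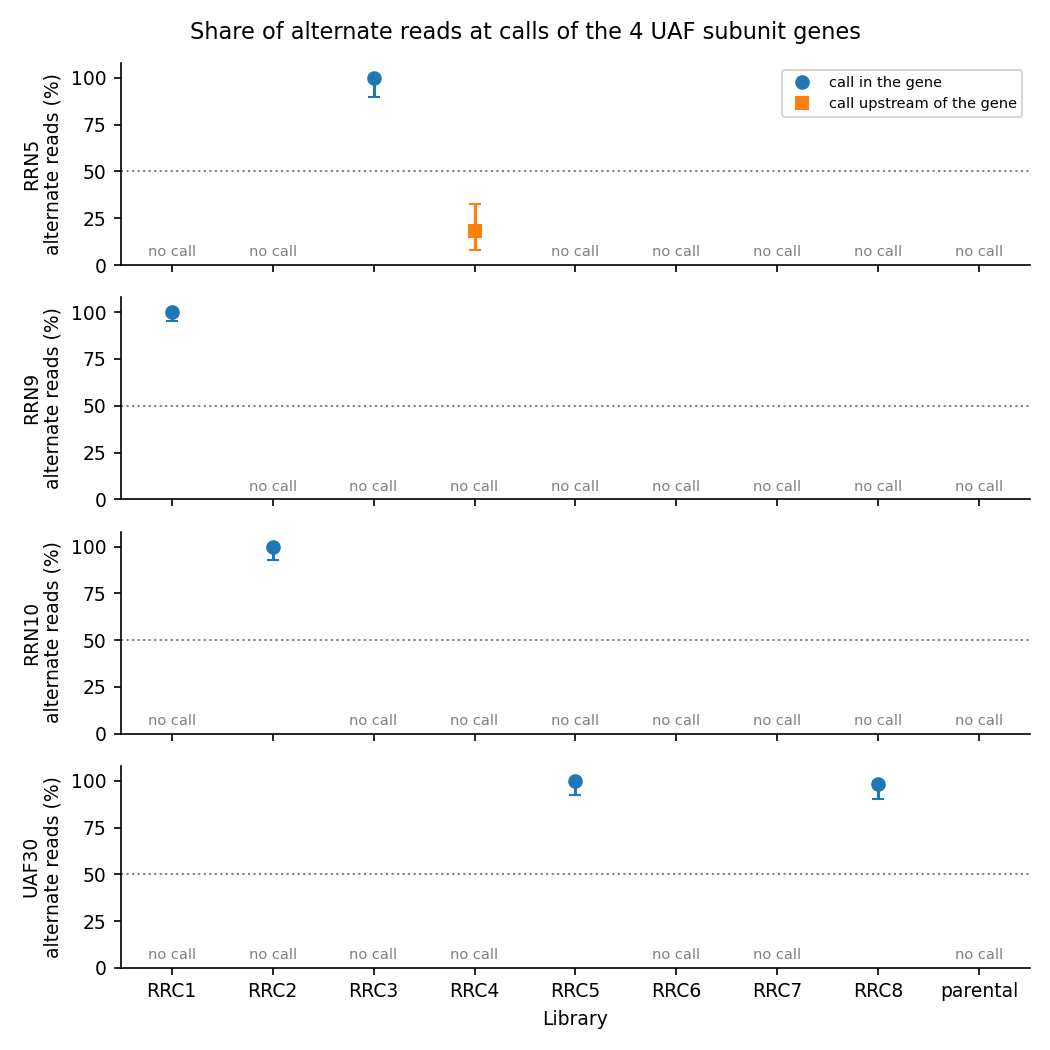
The vertical axis gives the share of alternate reads in percent and the horizontal axis the library, with 1 panel per gene. Circles are calls in the gene, the square is the call upstream of RRN5, bars are exact 95% intervals and the dotted line is 50%. The 5 calls in the genes stand at 98.2 to 100% and the upstream call at 18.2%.

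Against a share of 50%, the 5 calls in the genes were higher and the upstream call lower. The two-sided exact binomial test, adjusted by Benjamini-Hochberg over the pool-specific calls of the same pool with at least 10 reads, gave adjusted p = 1.00e-21 for RRN9 in RRC1, 5.79e-14 for RRN10 in RRC2, 2.06e-09 for RRN5 in RRC3, 1.04e-12 for UAF30 in RRC5 and 7.40e-14 for UAF30 in RRC8. The call upstream of RRN5 in RRC4 gave 0.000196. The members were chosen with the calls known, and the titles of RRC1, RRC2, RRC3 and RRC5 name the changed gene. The p-values therefore describe the reads and lend no support to the choice of genes. A pool-specific call is one whose position and alleles are absent from the parental list. It can still recur in other mutant pools, as a near-fixed 1-base deletion in the tRNA gene tS_AGA_D3 did in all 8. Near-fixed calls, with a share of at least 90% and an adjusted p under 0.05, made up 14.9% of the pool-specific calls of RRC1, 10.4% of those of RRC2, 12.4% of those of RRC3, 21.3% of those of RRC5 and 21% of those of RRC8. In RRC6 and RRC7, which had no call in a subunit gene, they made up 14.4% and 18.5%. In RRC4 10.3% were near-fixed, and 19.5% had a share below 50% with an adjusted p under 0.05, as the call upstream of RRN5 did. These percentages include calls that recur across mutant pools and calls of low score. A near-fixed share was not particular to the subunit genes, and the share alone did not single them out.

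Calls with a share as high as that of the subunit change, itself included, numbered 17 of 161 in RRC1, 9 of 163 in RRC2, 18 of 177 in RRC3, 23 of 164 in RRC5 and 18 of 119 in RRC8. Among pool-specific calls with a score of at least 200, they numbered 8 of 85 in RRC1, 4 of 70 in RRC2, 6 of 32 in RRC3, 12 of 61 in RRC5 and 10 of 50 in RRC8. A high score left fewer such calls but not a smaller proportion of them in RRC2, RRC3, RRC5 and RRC8. In RRC3 the cut also removed calls with shares near 50%, some of them scored only just below 200. The median share of the calls with a score of at least 200 was 48 to 57% in the same 5 pools. Counted over the 6021 protein-coding loci of the R64 table, 27 (0.448%) had a near-fixed protein-changing pool-specific call in any pool, all 4 subunit genes among them. These genes were chosen with the calls known, so this count is a description. In the deposited shortened lists, 1 per mutant, the changes in RRN9, RRN10 and RRN5 filled row 1, while UAF30 was in row 90 of 328 in RRC8 and row 11 of 370 in RRC5, and the call upstream of RRN5 in row 220 of 460 in RRC4.

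**Figure D3:**
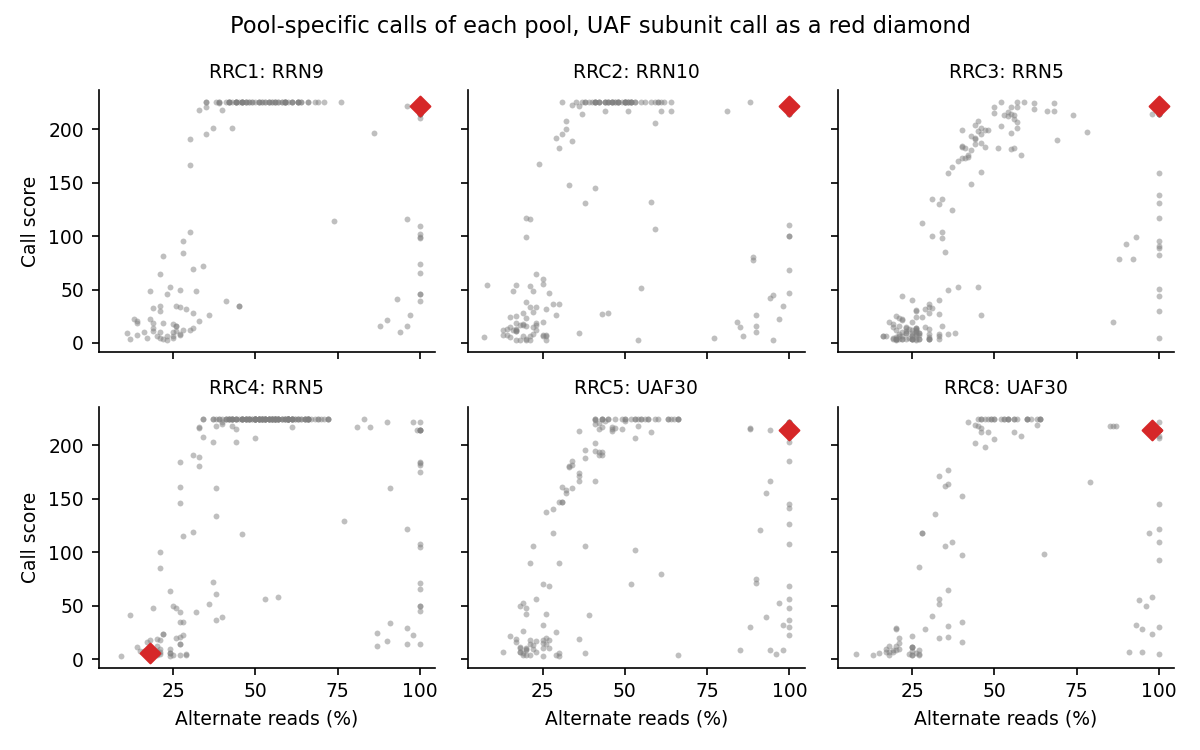
Each panel plots the pool-specific calls of 1 pool, with the percent of alternate reads on the horizontal axis and the call score on the vertical axis. The red diamond is the call of a subunit gene. In 5 panels it sits in the upper right corner, apart from the group of calls near 50%, and in RRC4 at the lower left with a score of 6.2.

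Other genes of the same machinery were counted in 4 further lists, 27 genes in all. Of these, 5 had a pool-specific call, 3 a protein change and 0 a near-fixed protein change, against 10.3%, 5.6% and 0.448% of the 6021 loci. The lists were not tested against other genes. None of the 4 genes of histones H3 and H4 (HHT1, HHT2, HHF1, HHF2) had a call. Of the 5 genes of the core factor, the TATA-binding protein and the initiation factor Rrn3, RRN3 carried S354N in RRC2 on 43 of 86 reads (50%) and RRN6, a core factor subunit gene, had a call 1 base downstream in the same pool. Of the 14 RNA polymerase I subunit genes, RPA135 carried V685I in RRC8 on 46 of 72 reads (adjusted p of the exact binomial test 0.0469) and RPC40 carried A286T in RRC4 on 26 of 67 reads (adjusted p 0.169), while RPB5 had a call 82 bases downstream in RRC4. None of SIR2, NET1, CDC14 and FOB1, which act in silencing or copy number control of the ribosomal RNA genes, had a pool-specific call, and FOB1 had a downstream call in the parental library.

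In RRC1, RRC2 and RRC5, the pool-specific call nearest to the changed gene among those scored at 200 or more had a higher share than the more distant ones. In RRC2, the call downstream of RRN6, 27.2 kb from the RRN10 stop, was on 62 of 70 reads, and the shares differed by 11.4 percentage points, RRN10 minus RRN6 (two-sided Fisher's exact test, p = 0.0202, adjusted over 3 pairs 0.0606). In the same pool KAP104 stood at 60% at 100.8 kb on that side and QDR3 at 44% at 152 kb, while TEL1 stood at 52% at 113 kb on the other side. In RRC1, RRN9 and NGL2, 34.8 kb apart, differed by 3.12 points, with 77 of 77 reads for RRN9 and 62 of 64 for NGL2 (Fisher's exact test, p = 0.204, adjusted 0.306). The next such calls of RRC1 on that chromosome were 506 kb or more away, at 47 to 61%. Calls of lower score did not follow this order. In RRC1 they stood at 4 of 13 reads 17.1 kb from RRN9 (score 12.3) and at 17 of 18 reads 116 kb away (score 9.92). The latter, a 1-base deletion, was annotated to ERR3 but not as a frameshift. In RRC2 they stood at 8 of 30 reads 34.2 kb from RRN10 (score 6.98) and at 18 of 18 reads 50.5 kb away in a Ty element open reading frame (score 100).

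In RRC5, RRS1, an essential gene of ribosome assembly that lies next to UAF30 in the R64 annotation, was changed on all 60 reads 0.959 kb from the frameshift, so the shares of the 2 changes did not differ (Fisher's exact test, p = 1). RRC8, with the same UAF30 frameshift, had no call in RRS1 and no pool-specific call of at least 10 reads elsewhere on the chromosome. In RRC3 the 3 calls with a score of at least 200 on the chromosome of RRN5 stood 189 to 372 kb away at 52 to 56%, so no call of that quality bears on the region close to RRN5. The neighbours were chosen after their values were seen, and calls of 1 chromosome in 1 pool share the same clones.

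**Figure D4:**
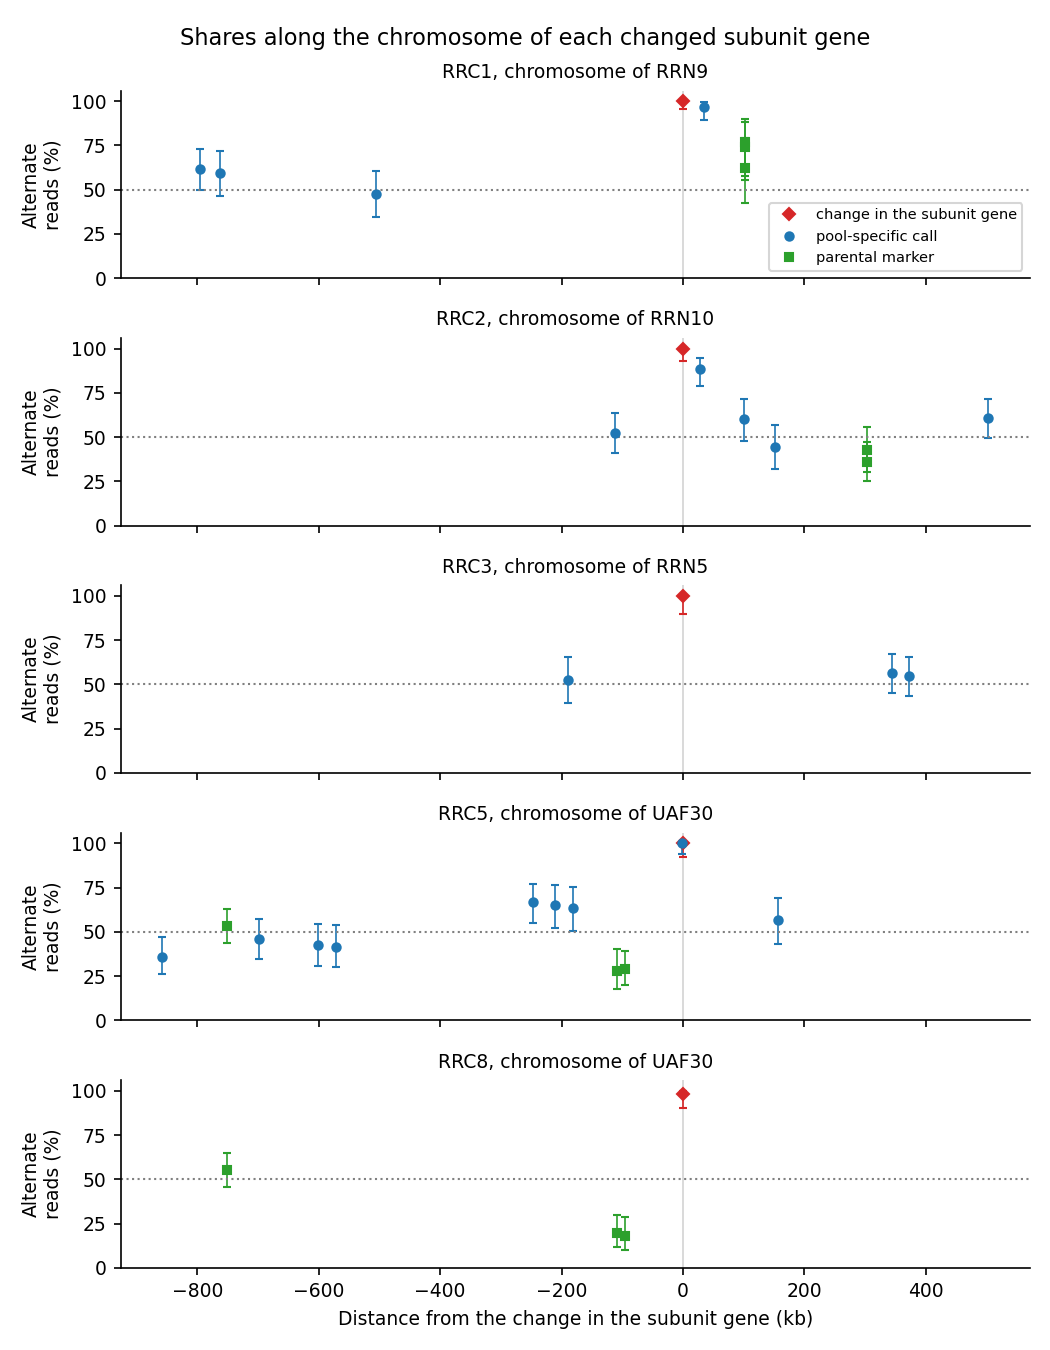
The horizontal axis is the distance in kb from the change in the subunit gene and the vertical axis the percent of alternate reads, with 1 panel per pool. Diamonds are the subunit changes, circles pool-specific calls with a score of at least 200, squares parental markers, and bars exact 95% intervals. Circles close to the diamond stand at 88% or more in RRC1, RRC2 and RRC5, and squares near UAF30 stand at 28.9% or less in RRC5 and RRC8.

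Alleles that split the parental library gave a second view of the chromosome of UAF30. Of the single-base calls with a score of at least 200 in the parental list, 21 had a share from 20 to 80%, and 3 of them lay on chromosome 15. The closest was E222Q in MKK1, a protein kinase gene, 96.3 kb from the frameshift. It was on 28 of 97 reads in RRC5 (28.9%, exact interval 20.1 to 39.0%) and on 13 of 72 reads in RRC8 (18.1%, 9.98 to 28.9%), against 30 of 63 reads in the parental library (47.6%, 34.9 to 60.6%). The next was G225C in YOR223W, 109 kb away, on 19 of 68 reads in RRC5 (27.9%) and 16 of 81 reads in RRC8 (19.8%), against 39 of 72 reads in the parental library (54.2%). The marker at 752 kb, in a Ty element open reading frame, stood at 53.4% in RRC5 and 55.3% in RRC8, against 45.0% in the parental library.

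These differences were tested with a two-sided Fisher's exact test of each pool's reads against the parental reads, adjusted over all 161 tests of the 21 markers, a comparison made after the values were seen. At MKK1 the difference by Fisher's exact test was -29.6 points in RRC8 (adjusted p = 0.00860) and -18.8 points in RRC5 (adjusted p = 0.217). Set against 50% of reads in place of the parental share, the MKK1 share in RRC5 was lower by 21.1 points (exact binomial test, adjusted p = 0.000437), so whether it passed depended on that choice. At YOR223W the difference from the parental share by Fisher's exact test was -34.4 points in RRC8 (adjusted p = 0.000285) and -26.2 points in RRC5 (adjusted p = 0.0360). Over all markers and pools, 4.97% of the tests were lower than the parental share at this threshold, 4 of the 8 at LEU2. The lower shares were not restricted to pools with a UAF30 call, since RRC7, which had none, stood at 18 of 69 reads at YOR223W (26.1%, adjusted exact p = 0.0208) but at 38 of 82 reads at MKK1 (46.3%, adjusted p = 1). RRC6 stood at 7 of 25 reads at YOR223W (adjusted exact p = 0.318) and 19 of 56 at MKK1 (adjusted p = 0.647). In RRC1 to RRC4 the share was 41.7 to 52.9% at YOR223W and 44.3 to 62.5% at MKK1. The difference between RRC7 and the pools with a UAF30 call was not tested. The MKK1 and YOR223W shares of a pool come from the same clones and are not independent results.

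**Figure D5:**
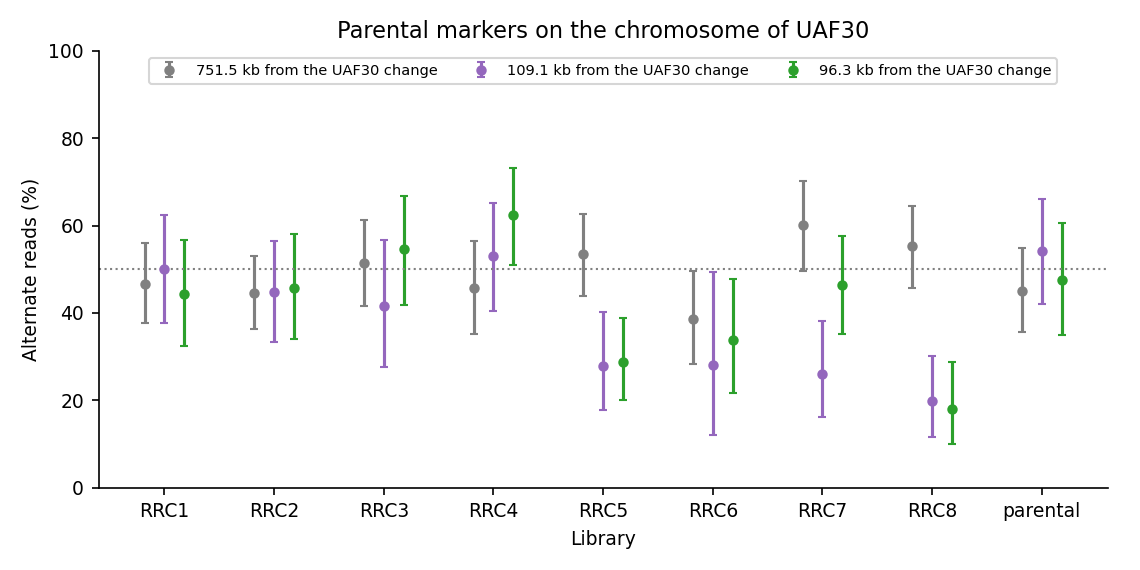
The vertical axis gives the percent of alternate reads at 3 markers that split the parental library on the chromosome of UAF30, and the horizontal axis the library. Colours give the distance from the UAF30 change and bars exact 95% intervals. The markers at 96.3 and 109.1 kb are at 18.1 to 28.9% in RRC5 and RRC8, and the marker at 751.5 kb is at 53.4 to 55.3% there.

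Markers were also present on the chromosomes of RRN9 and RRN10. The 3 in YMR317W, on neighbouring bases 103 kb from the RRN9 change, stood at 62.1, 76.7 and 74.2% in RRC1, against 65.8, 78.4 and 78.4% in the parental library (Fisher's exact test, adjusted p = 1 for each). The closer one in TKL2, a transketolase gene 303 kb from the RRN10 stop, was on 29 of 81 reads in RRC2, against 36 of 75 reads in the parental library (Fisher's exact test, adjusted p = 0.647). No marker of this kind lay on the chromosome of RRN5.

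The base changes of the subunit genes shared an orientation with their chromosomes. The 3 single-base changes inside the genes were G:C to A:T transitions, read on the reference strand as C to T for RRN9 and RRN10 and as G to A for RRN5. This class was not particular to them. Of the 85 pool-specific calls of RRC1 scored at 200 or more, 75 were of this class on numbered chromosomes at positions with no parental call. The 85 were not limited to such positions. The numbers were 60 of 70 in RRC2 and 25 of 32 in RRC3. Among such transitions scored at 200 or more at positions with no parental call, all 5 on the chromosome of RRN9 in RRC1 and all 6 on that of RRN10 in RRC2 were C to T, and all 4 on that of RRN5 in RRC3 were G to A, the subunit changes included. On the chromosome of UAF30 in RRC5, 8 of 9 were G to A. The same held widely in these pools, since 30 of 47 combinations of chromosome and pool with at least 4 such calls (63.8%) had a single orientation, although C to T (275 calls) and G to A (184 calls) were both common over all pools. The orientation was examined after the calls were seen and was not tested.

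The UAF30 frameshift was a deletion of 1 G from a run of 3. Deletions of 1 base in runs of at most 3 bases were pool-specific at 14 sites over the 8 mutant pools, 9 of them in 1 mutant list and 5 in at least 2. Of these 14 sites, 6 gave a frameshift, and the one in UAF30 was the only frameshift among them in more than 1 list.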

How the data were processed

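The 9 genomic libraries of the series were analysed, and the 16 chromatin immunoprecipitation samples were not analysed here. Each call in the deposited lists carries a score (named MapQ per the file headers), a read count at the position and the alternate allele's percent of those reads. The submitters' processing notes name SAMtools 0.1.19, Bowtie 1.0.0 and MACS2 for some samples, without a role. Genome build, variant caller and call filters were not given in the sources used here. As deposited, the percent is rounded down, and all 4459 values can be written as whole alternate reads out of the depth. The fewest reads that give each value were used, which is exact up to 100 reads.

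Shares carry exact (Clopper-Pearson) 95% intervals. Tests were exact binomial and Fisher's exact tests, two-sided, with Benjamini-Hochberg adjustment, and the binomial step was tested on simulated data. Protein-changing calls were missense, stop, frameshift and in-frame changes as annotated. Named genes are the 4 subunits, genes annotated in the same calls, genes of the 4 pathway lists, and, chosen after values were seen, chromosome neighbours and parental markers. Members and lists were chosen with earlier results of these data known. Alternatives covered depth and score minimums, the parental match, the shortened lists, share thresholds and read rounding. Scripts ran in Python 3.11.15 with SciPy 1.17.1, NumPy 2.4.6 and pandas 2.3.3, with figures drawn in Matplotlib 3.10.9.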

Additional observations from a re-analysis of the deposited data

How the results depend on the processing

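The shares at the 6 calls of the subunit genes were identical in all 41 recalculations that could be made. Their adjusted p-values kept their side of the threshold. The depth and score minimums and the parental match changed only which other calls entered the adjustment. Read rounding is exact at these depths. The shares could therefore not move under these settings, which do not test them. The shortened lists held the same shares. The call upstream of RRN5 has no value with a score of at least 200. The difference between RRC8 and RRC5 at UAF30 was the same under the other rounding, as it had to be at these depths. The number of near-fixed calls moved by over 1.5 times in 12 of 48 recalculations. With a score of at least 200 it was 9, 4, 7, 8, 13, 6, 8 and 10 calls in RRC1 to RRC8, against 24, 17, 22, 27, 35, 22, 28 and 25 without it. With at least 20 reads it was 12 in RRC3, 21 in RRC5, 9 in RRC6 and 16 in RRC7. All 12 were under these stricter score and read minimums, which by definition leave fewer calls to count. Why the dropped calls had low scores or few reads was not tested.

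Set against 50% of reads by an exact binomial test, an alternative chosen after seeing the data, the MKK1 marker in RRC5 was lower by 21.1 points with adjusted p = 0.000437. The YOR223W marker in RRC4 stood 2.94 points above 50%, against -1.23 points relative to the parental library, with neither past the threshold. No paired analysis was possible because each mutant is 1 library and only the immunoprecipitation samples carry replicate numbers. Depths of 34 to 77 reads limit how far a share near 100% can be told from a few percent of other alleles.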
